A study of Mus musculus with 6 samples.

Results

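Integrins and the genes of the focal adhesion core were read in RNAseq of GFP-positive cells, labelled as NCCs, from control and BAF155/170-deficient embryos. The members were taken by gene name: every protein-coding gene of GENCODE M21 whose symbol is that of an integrin alpha or beta subunit, and Tln1, Tln2, Vcl, Ilk, Parva, Parvb, Parvg, Fermt1, Fermt2, Fermt3, Pxn, Ptk2 and Zyx. This gave 39 of the 46983 genes in the table of counts, 46488 of which have a name in that release. Of the 39 members, 26 encode integrin subunits, 7 of them leukocyte integrins (Itgal, Itgam, Itgax, Itgad, Itgae, Itgb2 and Itgb7) and 19 other integrins, and 13 belong to the adhesion core.

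The study deletes BAF155 and BAF170, core subunits of a chromatin remodeling complex, in neural crest with Cre driven by Wnt1. GFP-positive cells were sorted at E11.25 from whole embryos dissociated with trypsin, with 3 samples in each group. Controls had the genotype Wnt1Cre/+;BAF155flox/+;BAF170flox/+;Rosa26mTmG/+ and thus carried the driver, the reporter and 1 floxed copy of each gene. The deficient embryos were Wnt1Cre/+;BAF155flox/flox;BAF170flox/flox;Rosa26mTmG/+, so by genotype each difference below compares both copies floxed with 1 copy floxed. How far the sorted cells had lost these copies was not measured. Wnt1 is also active in dorsal neural tube cells, so the sorted cells need not all be neural crest, and markers of macrophages far exceeded those of neural crest in every library.

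Integrins are pairs of an alpha and a beta subunit that span the plasma membrane and bind extracellular matrix or counter-receptors on other cells. Talins and kindlins bind the beta tail and switch the receptor to its active state, and Ilk, the parvins, paxillin, vinculin, zyxin and the kinase Fak link it to actin and to signaling. Neural crest cells migrate on fibronectin and laminin through beta1 and alphav integrins, whereas beta2 and beta7 integrins, kindlin-3 (Fermt3) and gamma-parvin (Parvg) are known mainly from blood cells.

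Control replicates 1 to 3 held 9662823, 8191219 and 11661941 counts, and deficient replicates 1 to 3 held 12633319, 16557026 and 19808620, so each deficient library was deeper than any control. Levels are given as counts scaled to a common library size (counts per 1e6, CPM), on library sizes normalized by the TMM method, always in the order of control replicates 1, 2 and 3 and then deficient replicates 1, 2 and 3. Levels of single genes are ranked against each other as CPM per kilobase of the gene's merged exons (CPM per kb), whereas sums over lists are in CPM, uncorrected for length. Log2 fold changes are those of deficient over control libraries, and their standard errors and p come from edgeR's quasi-likelihood test over 13961 genes with enough counts, with Benjamini-Hochberg adjustment over those genes. A gene was called where the adjusted p was at most 0.1, the log2 fold change was 0.58 or more, up or down, and the mean was 2 CPM or more.

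Smarcc1, which encodes BAF155, had 42.1, 55.0 and 35.1 CPM in control and 29.4, 26.4 and 24.5 CPM in deficient libraries. The groups did not overlap, and Smarcc1 was called lower (log2 fold change −0.71, standard error 0.156, edgeR, Benjamini-Hochberg adjusted p = 0.0676), a call lost without control replicate 1 (adjusted p = 0.222), deficient replicate 2 (0.132) or deficient replicate 3 (0.225), in a range of 2.91e-08 to 0.236 over 15 alternatives. Its log2 fold change was under the threshold for a call without control replicate 2 (−0.53) and after a correction for the dependence of counts on gene length (−0.57). Smarcc2, which encodes BAF170, had 91.8, 89.9 and 92.9 CPM in control and 85.9, 82.3 and 86.8 CPM in deficient libraries and was not called. Scaling the libraries to neural crest markers, which takes these markers as unchanged, moved the median of all tested genes from −0.02 to 1.19. Directions of single genes are thus those with TMM, and medians of lists are also given relative to that of all genes. The scaling multiplies each library by 1 factor, so by its construction these relative medians stay nearly the same. They are therefore no second check of a list. With this scaling the log2 fold changes of Smarcc1 and Smarcc2 turned to 0.55 and 1.09, below the median of all genes. Counts on whole genes do not show the loss of floxed exons.

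The label of the cells was set against marker genes. Of 29 neural crest markers, 27 passed the filter on low counts, with Crabp1 the most abundant per length (11.6 CPM per kb), and the list summed to 227, 301 and 162 CPM in control and to 137, 97.7 and 94.9 CPM in deficient libraries. With TMM all 27 had a negative log2 fold change, beside 7305 of 13961 tested genes. Of the 27, 13 were called lower, or 48.1% beside 4.88% of all tested genes. The median of the 27, −1.17, was 1.16 below that of all genes, or 1.08 below it with the marker scaling. Foxd3 and Barx1 failed the filter, and Sox10, which marks migrating and glial crest, had 4.36, 7.76 and 2.22 CPM in control and 1.49, 0.855 and 1.19 CPM in deficient libraries. All 16 macrophage markers passed the filter and summed to 15009, 14114 and 16365 CPM in control and to 16528, 17270 and 18011 CPM in deficient libraries, with Ctss the most abundant per length (2823 CPM per kb). Per library, the macrophage sum was 66.0, 46.8 and 101 times the neural crest sum in control and 121, 177 and 189.8 times in deficient libraries. In CPM, uncorrected for gene length, the macrophage markers thus far exceeded those of the labelled cell type in all 6 libraries. In bulk samples such as these, fewer cells of a type and less RNA per cell cannot be told apart.

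Of the 39 members, 34 passed the filter, and Itgae, Itga2, Itga3, Itgb6 and Fermt1 did not. Tln2, a talin, was called lower, or 2.94% of the members tested, where 4.88% of all genes tested were called lower. No member was called higher by edgeR, by DESeq2 or by limma-voom, where edgeR called 0.0573% of all genes; by edgeR 8 members were higher and 4 lower at an unadjusted p under 0.05, or 23.5% and 11.8% beside 12.1% and 15.2% of all tested genes. Without the threshold on the fold change, 2 members were lower at an adjusted p of at most 0.1 (Itga8 and Tln2; 7.75% of all genes), and 4 were higher (Itgal, Itgb2, Itga5 and Fermt3; 4.18% of all genes), by edgeR with Benjamini-Hochberg adjustment. The values of all deficient libraries lay above those of all controls in 9 members (15.0% of all genes) and below them in 2, Itga8 and Ptk2 (16.4% of all genes).

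These counts changed when single libraries were left out, which also leaves fewer samples for the test. No member was called lower when any 1 of 4 libraries was left out (control replicates 1 and 2 and deficient replicates 2 and 3), where the number of members higher at an adjusted p of at most 0.1 was 0 as well, and that of lower ones 0. Without control replicate 3 the same numbers were 2, 9 and 4, and without deficient replicate 1 the member called lower was Itgb8 in place of Tln2. Over all tested genes the number called lower was 681, and it was 0, 61 and 1219 with control replicates 1, 2 and 3 left out in turn, and 1030, 219 and 17 with deficient replicates 1, 2 and 3 left out in turn.

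Of the 34 tested members, 19 had a log2 fold change above 0 and 15 below it, with a median of 0.05, beside −0.02 over all tested genes. This median was 0.06 above that of all genes with TMM and 0.05 above it with the marker scaling. The members' own median was 0.02, 0.04 and −0.02 with control replicates 1, 2 and 3 left out in turn, and 0.04, 0.00 and 0.02 with deficient replicates 1, 2 and 3 left out in turn.

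**Figure D1:**
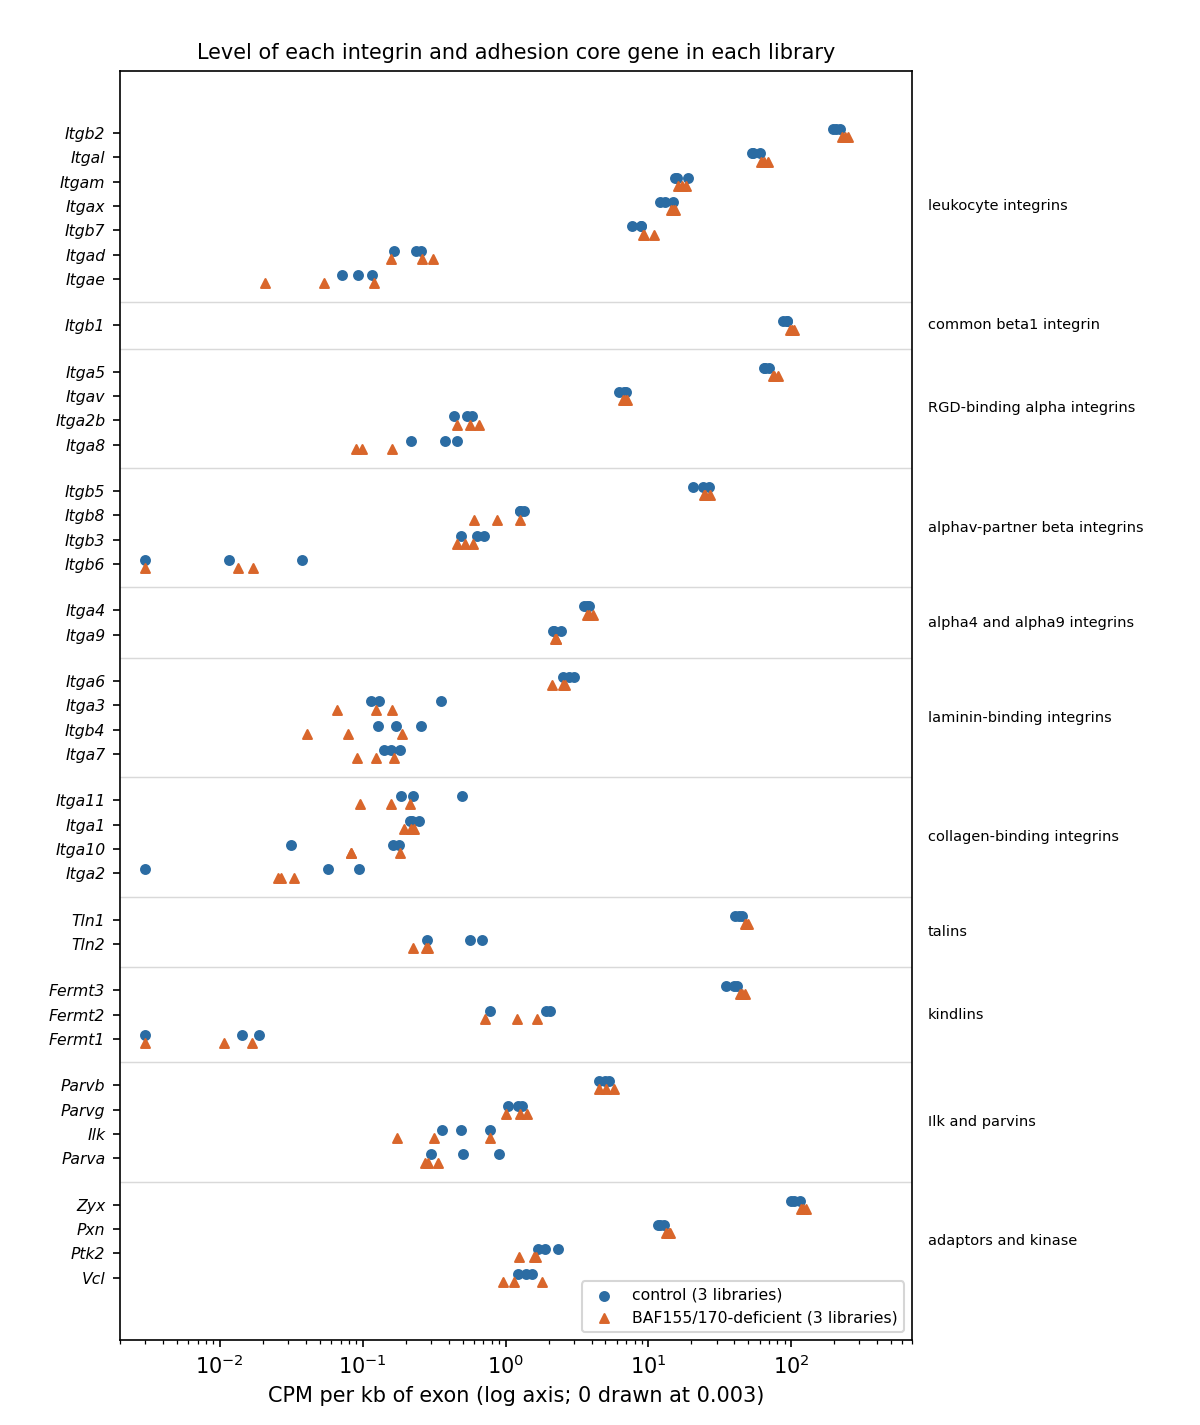
Levels of the 39 members in each of the 6 libraries, in CPM per kilobase of exon on a log axis and grouped by role. Points are single libraries, and genes are to be compared along this scale only.

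Among the leukocyte integrins, Itgb2 encodes the beta subunit (CD18) that pairs with the alpha subunits of Itgal, Itgam, Itgax and Itgad on leukocytes. Itgb2 (ENSMUSG00000000290.13, at chr10:77530252-77565708 of GRCm38) had 629, 595 and 669 CPM in control and 694, 727 and 762 CPM in deficient libraries. Every deficient library was above every control, with control replicate 2 lowest and deficient replicate 3 highest. Its log2 fold change of 0.21 (standard error 0.0662) was under the threshold on the fold change (edgeR, Benjamini-Hochberg adjusted p = 0.0949). At a mean of 223 CPM per kb, Itgb2 had the highest level per length of all 39 members, and it held between 61.2% and 63.7% of the CPM per kb of all beta integrins in every library.

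Itgal, the alpha subunit of LFA-1, binds Icam proteins on other cells. Itgal (ENSMUSG00000030830.18, chr7:127296260-127335138) had 352, 348 and 395 CPM in control and 405, 422 and 454.5 CPM in deficient libraries. The groups did not overlap, though control replicate 3 and deficient replicate 1 lay near each other. Its log2 fold change was 0.23 (standard error 0.0699, edgeR, Benjamini-Hochberg adjusted p = 0.0914). Per length it was the most abundant leukocyte alpha subunit, at 60.3 CPM per kb on average.

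Itgam, the alpha subunit of Mac-1 on myeloid cells and a common surface marker of macrophages, had 79.2, 76.5 and 95.8 CPM in control and 81.5, 86.5 and 92.3 CPM in deficient libraries. Control replicate 3 was the highest of the 6, so the groups overlapped, and the log2 fold change was 0.05 (standard error 0.0878, edgeR, Benjamini-Hochberg adjusted p = 0.774). Without control replicate 2 it was −0.01. Itgax, the alpha subunit known as CD11c, had 57.9, 62.5 and 70.8 CPM in control and 74.0, 69.5 and 71.8 CPM in deficient libraries. Control replicate 3 lay above deficient replicate 2, and the log2 fold change was 0.17 (standard error 0.0783). Both alpha subunits were well under Itgal per length, at 17.0 and 14.1 CPM per kb. Over its exons, 68.7% of Itgam is shared on the same strand with the gene Gm49368, so its counts depend on how reads in shared exons were assigned.

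Itgb7, the beta subunit that pairs with alpha4 or alphaE on lymphocytes and some myeloid cells, had 24.7, 21.3 and 24.6 CPM in control and 25.8, 25.4 and 30.4 CPM in deficient libraries. The groups did not overlap, with a gap of less than 1 CPM between deficient replicate 2 and control replicate 1, and the log2 fold change was 0.21 (standard error 0.103, edgeR, Benjamini-Hochberg adjusted p = 0.218). Itgad, which encodes CD11d, was near the filter, with counts from 7 to 23, and Itgae, the alphaE subunit of T cells in epithelia, had counts of 4, 4 and 4 in the controls and 7, 4 and 2 in the deficient libraries. The log2 fold change of Itgad was 0.12 (standard error 0.438), and Itgae was not tested.

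Together the 7 leukocyte integrins summed to 1144, 1105 and 1258 CPM in control and to 1282, 1333 and 1412 CPM in deficient libraries, and the groups did not overlap. The 16 macrophage markers moved with them: the leukocyte integrin sum was between 0.0762 and 0.0784 times the macrophage sum in every library. All 16 macrophage markers had log2 fold changes above 0, from 0.15 to 0.25, beside 6656 of 13961 tested genes above 0. The median of these markers, 0.19, was 0.21 above the median of all genes and 0.18 above it with the scaling to neural crest markers. A list of 8 pan-leukocyte markers, the most abundant per length being Cd53 (314 CPM per kb), summed to 3391, 3190 and 3658 CPM in control and to 3753, 3893 and 4114 CPM in deficient libraries. The part of these cell types in the levels of the integrins was not tested.

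In the lymphoid, neutrophil, platelet and mast cell lists most markers failed the filter. Of 9 lymphoid markers 1 was tested, Il7r, and the list summed to 222, 194 and 222 CPM in control and to 235, 239 and 250 CPM in deficient libraries. Neutrophil markers summed to 300, 291 and 323 CPM in control and to 340, 346 and 380 CPM in deficient libraries, mostly from Csf3r, which monocytes and macrophages express as well. Of the 9 neutrophil markers 4 were tested: Csf3r, S100a8 (15.9 CPM per kb) and S100a9 (13.7 CPM per kb), whose groups did not overlap with the deficient libraries higher, and Ngp (2.97 CPM per kb), whose groups overlapped. Over all tested genes, 15.0% had every deficient library above every control. Camp had a mean of 0.511 CPM, and Elane, Mpo, Ly6g and Retnlg were near 0. Platelet and megakaryocyte markers summed to 60.6, 54.4 and 69.8 CPM in control and to 66.9, 73.6 and 68.6 CPM in deficient libraries, mostly from Pf4. Of 5 mast cell markers and 6 epithelial markers none passed the filter.

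The 6 tested leukocyte integrins all had log2 fold changes above 0 with TMM, from 0.05 to 0.23, beside 6656 of 13961 tested genes above 0. The median of these integrins, 0.19, was 0.20 above that of all genes, or 0.18 above it with the scaling to neural crest markers. The 16 tested other integrins had a median of −0.10, which was 0.08 below that of all genes with TMM, 0.07 below it with the marker scaling and turned to 0.05 when each library was corrected for its trend with gene length. That median was −0.05, −0.06 and −0.16 when control replicates 1, 2 and 3 were dropped in turn, and −0.16 and −0.05 when deficient replicates 1 and 3 were. Among the other integrins 7 had a log2 fold change above 0 and 9 below, and the groups did not overlap in 2 higher members (12.5%, beside 15.0% of all genes) and 1 lower one (6.25%, beside 16.4%). No test of the difference between both sets of integrins was run. Leukocyte integrins held 59.2%, 59.6% and 61.1% of the CPM per kb of all integrins in the controls and 60.4%, 61.0% and 61.2% in the deficient libraries. The groups overlapped in this share, and it was above 59% in the controls too.

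The promoters of the members were searched for a pair of short motifs. This was because 4 leukocyte integrins (Itgal, Itgax, Itgb2 and Itgb7) and Fermt3 had log2 fold changes within the range of the macrophage markers. Itgam and Itgad did not, whereas Itga5, Tln1, Pxn, Zyx and 15.6% of all tested genes did. RefSeq promoters (GRCm38.p6) were found for 27 of the 39 members, 31 promoters in all, and no entry was matched for Itga6, Itga7, Itgad, Itgae, Itgal, Itgb2, Itgb3, Itgb4, Parva, Ptk2, Pxn and Tln2. The core letters of PU.1 sites, GAGGAA or TTCCTC on the other strand, stood within 250 bases before the start of 10 of the 31 member promoters and of 23.3% of all 32851 promoters. The 10 promoters are those of Itga11, Itga2b, Itga3, Itga5, Itgam, Itgav, Itgb1, Itgb6, Parvg and Tln1, so that Itgam was the only leukocyte integrin with a match among those that have an entry. Of the genes that prompted the search, Itgal and Itgb2 have no entry, and Itgax, Itgb7 and Fermt3 had no match. The core letters of Tead sites, GGAATG or CATTCC, stood in 3 (Itga10, Itgb1 and Vcl) and in 12.6%. PU.1 is a transcription factor of myeloid cells and B cells, and a match of its letters describes the sequence and shows no binding. Both motifs contain GGAA on one strand, so their matches can overlap. The 150 bases before the start are shown for a pair of leukocyte alpha subunits, for the blood kindlin Fermt3 and for Itga5, at chr7:128062490-128062639 (plus strand), chr7:128129400-128129549 (plus strand), chr19:7019470-7019619 (minus strand) and chr15:103366792-103366941 (minus strand) of GRCm38.p6. Capitals mark the PU.1 letters, which occur in Itgam and Itga5 and not in these windows of Itgax and Fermt3.
Itgam: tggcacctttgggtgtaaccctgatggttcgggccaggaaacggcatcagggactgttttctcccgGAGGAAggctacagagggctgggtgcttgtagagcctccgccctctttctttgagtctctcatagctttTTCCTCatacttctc
Itgax: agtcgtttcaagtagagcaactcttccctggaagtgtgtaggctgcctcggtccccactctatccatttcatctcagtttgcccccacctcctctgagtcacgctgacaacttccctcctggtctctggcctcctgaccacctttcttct
Fermt3: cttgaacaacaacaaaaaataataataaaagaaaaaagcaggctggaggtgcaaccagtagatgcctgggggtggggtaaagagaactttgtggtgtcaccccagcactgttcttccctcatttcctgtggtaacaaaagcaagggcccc
Itga5: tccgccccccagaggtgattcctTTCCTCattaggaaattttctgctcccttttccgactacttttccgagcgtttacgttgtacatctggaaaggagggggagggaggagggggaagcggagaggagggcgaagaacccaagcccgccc

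Of the other integrins, Itgb1 is the beta subunit shared by most matrix receptors. Itgb1 (ENSMUSG00000025809.15, chr8:128685654-128733200) had 380, 356 and 382 CPM in control and 401, 410 and 428 CPM in deficient libraries. No deficient value fell among the controls, and the log2 fold change was 0.15 (standard error 0.0588, edgeR, Benjamini-Hochberg adjusted p = 0.134). Its mean of 96.2 CPM per kb was the highest among the other integrins, but in each library Itgb2 was above it, by 2.22, 2.24 and 2.35 times per length in control and 2.32, 2.37 and 2.38 times in deficient libraries.

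The alpha subunits that bind the RGD motif of fibronectin and vitronectin are those of Itga5, Itgav, Itga8 and Itga2b. Itga5, the alpha subunit of the main fibronectin receptor, had 324, 316 and 343.5 CPM in control and 369, 376 and 399.6 CPM in deficient libraries. Each deficient library exceeded each control, and the log2 fold change was 0.22 (standard error 0.0604, edgeR, Benjamini-Hochberg adjusted p = 0.0784), under the threshold on the fold change. Itga5 (71.9 CPM per kb) stood between 17.3 and 20.3 times above Itga4 (3.77 CPM per kb) in each library.

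Itga8, which pairs with beta1 in mesenchymal cells, had the largest fold change of the members. Itga8 (ENSMUSG00000026768.10, chr2:12106632-12301922) had 1.60, 3.34 and 2.79 CPM in control and 1.17, 0.733 and 0.665 CPM in deficient libraries, from counts of 15, 25 and 34 and of 15, 12 and 14. All deficient values were below all controls, with control replicate 1 the nearest to them. Its log2 fold change was −1.60 (standard error 0.405, edgeR, Benjamini-Hochberg adjusted p = 0.0708), but its mean of 1.72 CPM was under the threshold for a call. The adjusted p was over 0.1 with control replicate 1 (0.214) or 2 (0.225) or deficient replicate 2 (0.126) or 3 (0.226) left out, in a range of 0.00718 to 0.455 over 15 alternatives.

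Itgav, the alpha subunit of vitronectin and latent TGF-beta receptors, had 74.4, 72.5 and 67.1 CPM in control and 76.1, 71.4 and 73.2 CPM in deficient libraries, and the groups overlapped (log2 fold change 0.05, standard error 0.0651). Itga2b, the platelet alpha subunit, had between 2.38 and 3.54 CPM. Besides Itgb1, alphav pairs with the products of Itgb3, Itgb5, Itgb6 and Itgb8, of which Itgb5 was the most abundant per length (24.6 CPM per kb), with 94.1, 72.6 and 85.4 CPM in control and 87.7, 88.1 and 95.8 CPM in deficient libraries. Its groups overlapped, and its log2 fold change was 0.10 (standard error 0.0873). Itgb8, whose product activates TGF-beta, had 15.0, 13.9 and 14.0 CPM in control and 13.9, 6.66 and 9.69 CPM in deficient libraries. Deficient replicates 2 and 3 were low, deficient replicate 1 was at the level of the controls, and the log2 fold change was −0.52 (standard error 0.231, edgeR, Benjamini-Hochberg adjusted p = 0.186). With deficient replicate 1 left out Itgb8 was called lower (log2 fold change −0.80, edgeR, Benjamini-Hochberg adjusted p = 0.0380, the lowest of a range up to 0.411 over 15 alternatives), and with the marker scaling its log2 fold change was 0.63. Itgb3, the beta subunit of platelets and osteoclasts, had between 2.69 and 4.15 CPM and overlapped between the groups. Itgb6, an epithelial subunit, had at most 2 counts in any library.

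The alpha4 and alpha9 subunits bind Vcam1, fibronectin and other ligands on leukocytes, crest and other cells. Itga4 had 49.6, 51.8 and 53.4 CPM in control and 51.5, 53.3 and 56.8 CPM in deficient libraries, and its groups overlapped (log2 fold change 0.06, standard error 0.0694). Itga9 had between 16.4 and 18.7 CPM in the 6 libraries, with a log2 fold change of 0.00 (standard error 0.104).

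The laminin receptors are made of the products of Itga3, Itga6, Itga7 and Itgb4. Itga6 was the most abundant of them per length (2.59 CPM per kb), with 25.0, 27.0 and 22.8 CPM in control and 23.4, 22.7 and 19.1 CPM in deficient libraries. Its groups overlapped through deficient replicate 1, and its log2 fold change was −0.20 (standard error 0.108, edgeR, Benjamini-Hochberg adjusted p = 0.259). Itgb4 of hemidesmosomes and Itga7 of muscle had means of 1.01 and 1.16 CPM, and Itga3 failed the filter, with a mean of 0.901 CPM. The 3 tested laminin-binding members had log2 fold changes from −0.92 to −0.20, and all of them turned positive with the scaling to neural crest markers, where their median was 0.34 below that of all genes. With single libraries left out in turn, they ran from −1.64 to −0.49 for Itgb4, from −0.56 to −0.16 for Itga7 and from −0.26 to −0.11 for Itga6.

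The collagen receptors had low counts. Itga1, Itga10 and Itga11 had means of 4.10, 0.624 and 1.17 CPM, or 0.221, 0.120 and 0.229 CPM per kb, and Itga2 failed the filter. Of the exons of Itga10, 33.5% are shared on the same strand with Gm42957. Itga11, which marks mesenchyme, had 0.957, 2.54 and 1.15 CPM in control and 1.10, 0.489 and 0.807 CPM in deficient libraries. Control replicate 2 was high, and the other values overlapped (log2 fold change −0.92, standard error 0.496, edgeR, Benjamini-Hochberg adjusted p = 0.251). The 3 tested members had log2 fold changes below 0 with TMM and above 0 with the marker scaling, where their median was 0.12 below that of all genes.

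In the adhesion core, the talins bind the beta tail and carry the link to actin. Tln1, the talin of blood cells and most other cells, had 423, 398 and 440 CPM in control and 461, 470 and 484 CPM in deficient libraries. Its groups did not overlap (log2 fold change 0.17, standard error 0.0604, edgeR, Benjamini-Hochberg adjusted p = 0.113). Tln2, known from muscle and brain, was the member called lower. Tln2 (ENSMUSG00000052698.14, chr9:67217087-67559703) had 10.4, 12.6 and 5.17 CPM in control and 5.25, 5.07 and 4.13 CPM in deficient libraries. Control replicates 1 and 2 were high, whereas control replicate 3 lay below deficient replicate 1, so the groups overlapped.

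Tln2 fell 1.93 times, with a log2 fold change of −0.95 (standard error 0.295, edgeR, Benjamini-Hochberg adjusted p = 0.0943). The call was lost when control replicate 1 (adjusted p = 0.272) or 2 (0.288) or deficient replicate 1 (0.109), 2 (0.173) or 3 (0.302) was left out, and held without control replicate 3 (0.0105). It was lost by limma-voom (Benjamini-Hochberg adjusted p = 0.138) and with the length correction (0.136), and the log2 fold change was 0.37 with the scaling to neural crest markers, 0.82 below the median of all genes. Over its 15 alternatives the adjusted p ran from 0.00159 to 0.405. Per length, Tln1 exceeded Tln2 by 76.0, 59.2 and 159 times in control and by 165, 174 and 219.6 times in deficient libraries.

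Kindlins activate integrins together with talin. Fermt3, the kindlin of blood cells, had 228, 202 and 239.9 CPM in control and 255, 259.6 and 276 CPM in deficient libraries. The groups did not overlap, and the log2 fold change was 0.24 (standard error 0.0699, edgeR, Benjamini-Hochberg adjusted p = 0.0860), under the threshold on the fold change. Fermt2, the kindlin of mesenchymal cells, had 10.6, 9.90 and 4.02 CPM in control and 6.27, 8.55 and 3.75 CPM in deficient libraries. Control replicate 3 and deficient replicate 3 were low, and the groups overlapped (log2 fold change −0.39, standard error 0.432). With single libraries left out in turn, the log2 fold change of Fermt2 ran from −0.74 to −0.11. Fermt3 exceeded Fermt2 per length by between 18.3 and 66.0 times. Fermt1, the epithelial kindlin, had at most 2 counts in any library.

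The adjusted p of Itgal, Itgb2, Itga5 and Fermt3 rose over 0.1 without any 1 of 4 libraries (edgeR, Benjamini-Hochberg). Without control replicate 1 it was 0.276, 0.269, 0.249 and 0.247 for these 4 genes in that order, and without control replicate 2 it was 0.260, 0.273, 0.231 and 0.253. Without deficient replicate 2 it was 0.173, 0.200, 0.155 and 0.157, and without deficient replicate 3 it was 0.313, 0.326, 0.281 and 0.284. On library totals in place of TMM sizes it was 0.218, 0.250, 0.213 and 0.198, and for Itgb2 it was 0.120 with the length correction. With control replicate 3 left out, 5 further members had a Benjamini-Hochberg adjusted p under 0.1 and a higher mean in the deficient libraries: Itgax (0.0325), Itgb1 (0.0640), Tln1 (0.0299), Zyx (0.0168) and Pxn (0.0373). So did Ptk2 with a lower mean (0.0363). Over their alternatives the lowest and highest were 0.0116 and 0.503 for Itgax, 0.0118 and 0.418 for Itgb1, 0.0117 and 0.359 for Tln1, 0.0103 and 0.333 for Zyx, 0.0116 and 0.356 for Pxn, and 0.0166 and 0.333 for Ptk2. Over 15 alternatives the adjusted p ran from 0.00617 to 0.313 for Itgal, from 0.0104 to 0.326 for Itgb2, from 0.00698 to 0.281 for Itga5 and from 0.00769 to 0.284 for Fermt3.

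Ilk and the parvins form a complex that joins kindlin to actin. Parvb was the most abundant of them per length (5.02 CPM per kb), with 23.4, 19.9 and 21.8 CPM in control and 20.05, 22.2 and 25.5 CPM in deficient libraries, and its groups overlapped. Parvg, the parvin of blood cells, had between 3.12 and 4.37 CPM and overlapped too. Parva, the widely expressed parvin, had 5.11, 9.10 and 3.04 CPM in control and 3.45, 2.93 and 2.75 CPM in deficient libraries. Control replicates 1 and 2 were high and control replicate 3 lay among the deficient libraries (log2 fold change −0.89, standard error 0.355, edgeR, Benjamini-Hochberg adjusted p = 0.141). With single libraries left out in turn, the log2 fold change of Parva ran from −1.21 to −0.41. With control replicate 3 left out Parva was called lower (log2 fold change −1.21, Benjamini-Hochberg adjusted p = 0.0210, the lowest of 15 alternatives that reached 0.509), as it was without a filter on low counts (log2 fold change −0.83, adjusted p = 0.0360), and with the marker scaling its log2 fold change was 0.46. Ilk had counts of 10 to 35, but 89.7% of its exon length is covered by genes of the opposite strand, Rrp8 and Taf10, so its level is uncertain: the libraries were strand-specific, but the strand setting of the counting is not given.

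Of the adaptors and the kinase, Zyx, which encodes zyxin, had 563, 536 and 619 CPM in control and 635, 654 and 689 CPM in deficient libraries. The groups did not overlap (log2 fold change 0.20, standard error 0.0684, edgeR, Benjamini-Hochberg adjusted p = 0.1004), and at 114 CPM per kb Zyx was second to Itgb2 among all members. Pxn, which encodes paxillin, had 98.7, 96.1 and 106 CPM in control and 108, 115 and 117 CPM in deficient libraries, again without overlap (log2 fold change 0.17, standard error 0.0626). Vcl, which encodes vinculin, had 12.55, 11.4 and 9.93 CPM in control and 9.32, 14.7 and 7.88 CPM in deficient libraries. Deficient replicate 2 was the highest of all and deficient replicate 3 the lowest, and the log2 fold change was −0.08 (standard error 0.226). Of the exons of Vcl, 25.5% are covered on the opposite strand by Ap3m1 (30.8 CPM on average), so the strand setting bears on its level too.

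Ptk2, which encodes Fak, the main kinase of focal adhesions, had 22.4, 27.4 and 19.9 CPM in control and 18.6, 19.2 and 14.7 CPM in deficient libraries. The deficient libraries were all below the controls, with control replicate 3 close to deficient replicate 2. Its log2 fold change was −0.41 (standard error 0.141, edgeR, Benjamini-Hochberg adjusted p = 0.106), and with the scaling to neural crest markers it was 0.84, or below the 1.19 of all genes. Ptk2b, its relative Pyk2 of blood cells and neurons, exceeded Ptk2 per length by 26.6, 20.9 and 33.1 times in control and by 36.7, 37.1 and 50.9 times in deficient libraries. The 12 tested genes of the adhesion core had a median log2 fold change of −0.01, which was 0.01 above that of all genes with TMM and 0.03 above it with the marker scaling. The median was 0.06, −0.03 and −0.10 when control replicates 1, 2 and 3 were dropped in turn, and 0.02, −0.16 and 0.01 when deficient replicates 1, 2 and 3 were.

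**Figure D2:**
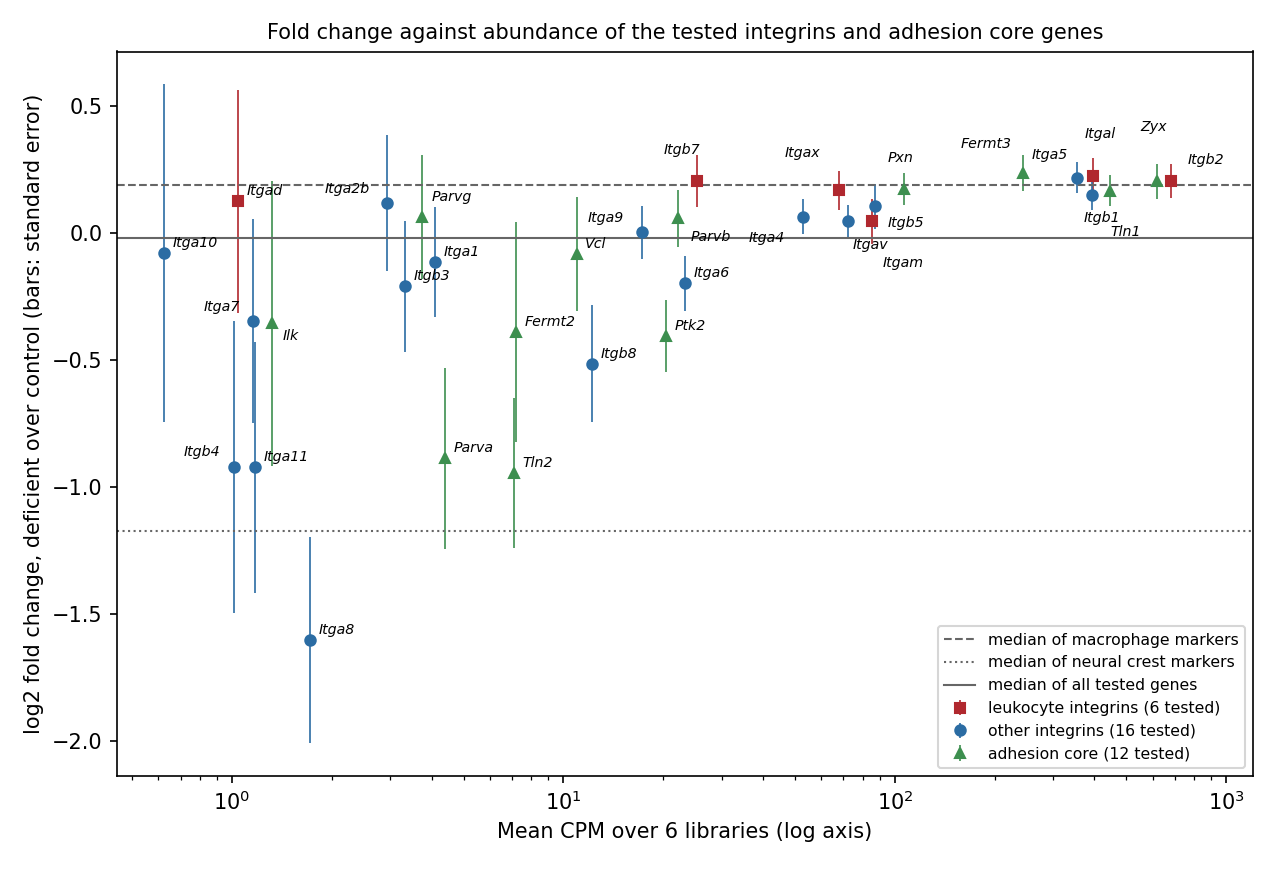
Log2 fold change (with standard error) against mean level for the 34 tested members with TMM, beside the medians of macrophage markers, neural crest markers and all genes. With the scaling to neural crest markers the median of all genes moves to 1.19 and the negative values turn positive for every member but Itga8.

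Members that were abundant and members that were scarce differed in direction with TMM. Above a mean of 40 CPM, a split on counts and not on level per length that was chosen after the values were seen, all 13 members had a log2 fold change above 0, with a median of 0.17, and 8 of them (61.5%) did not overlap between the groups. Of all 3154 tested genes above that level, 82.4% had a log2 fold change above 0, the median was 0.14, and 44.2% did not overlap with the deficient libraries higher. Below 40 CPM, 15 of 21 members (71.4%) had a log2 fold change under 0, with a median of −0.21, beside 62.5% of 10807 genes and a median of −0.10. With the scaling to neural crest markers the medians were 1.36 for the abundant members and 1.02 for the scarce ones, around the 1.19 of all genes. A positive median with TMM was thus common to abundant members and abundant genes in general. The log2 fold changes of 9 members (26.5%) lay within the range of the 16 macrophage markers, and so did those of 15.6% of all tested genes. These 9 were Itgal, Itgax, Itgb2, Itgb7, Itga5, Tln1, Fermt3, Zyx and Pxn. What part the macrophage and neural crest transcripts had in either direction was not tested.

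Of 50 other genes of the adhesome, which cover regulators, adaptors and kinases around the core, 47 were tested and 2 were called lower, or 4.26%, beside 4.88% of all tested genes. Enah, an actin polymerase partner of zyxin in the Mena and Vasp family, had 44.1, 59.7 and 33.1 CPM in control and 24.2, 17.1 and 13.4 CPM in deficient libraries. Its groups did not overlap (log2 fold change −1.33, standard error 0.311, edgeR, Benjamini-Hochberg adjusted p = 0.0901). Bcar1, the adaptor p130Cas, had 9.68, 9.63 and 5.58 CPM in control and 5.40, 5.44 and 3.94 CPM in deficient libraries, and its groups did not overlap by a gap of less than 1 CPM (log2 fold change −0.74, standard error 0.247, edgeR, Benjamini-Hochberg adjusted p = 0.0987). Both calls were lost when control replicate 1 (adjusted p = 0.245 for Enah and 0.298 for Bcar1) or 2 (0.236 and 0.289) or deficient replicate 2 (0.195 and 0.157) or 3 (0.277 and 0.313) was left out, and that of Bcar1 also by limma-voom (0.120). Without control replicate 3 the number called was 7. Over 15 alternatives the adjusted p ran from 6.95e-07 to 0.877 for Enah and from 0.0179 to 0.313 for Bcar1. With the scaling to neural crest markers the log2 fold changes were −0.07 for Enah and 0.53 for Bcar1, both under the median of all genes.

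None of these adhesome genes was called higher by edgeR, DESeq2 or limma-voom, and by edgeR 15 were higher and 7 lower at an unadjusted p under 0.05, or 31.9% and 14.9% beside 12.1% and 15.2% of all tested genes. Ptk2b, Lpxn, Vasp and Lasp1 were higher and Enah, Bcar1, Tns1 and Tns2 lower by the adjusted p alone, at 0.1 (edgeR, Benjamini-Hochberg), or 8.51% in each direction beside 4.18% of all genes higher and 7.75% lower. Lpxn encodes leupaxin, a relative of paxillin in blood cells, and Tns1 and Tns2 encode tensins, which bind the beta tail in fibroblasts. The most abundant of the list per length was Rap1b (264 CPM per kb), a small GTPase that recruits talin, with 703, 671 and 770 CPM in control and 760.5, 816 and 851 CPM in deficient libraries. Deficient replicate 1 lay under control replicate 3, and the log2 fold change was 0.18 (standard error 0.0708). The list had a median log2 fold change of 0.04, or 0.06 above that of all genes and 0.04 above it with the marker scaling, and the median was 0.07 without control replicate 3.

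Of 28 integrin ligands listed, 26 were in the table, since Cyr61 and Ctgf are older names of Ccn1 and Ccn2, and 23 were tested. Of these 5 were called lower, or 21.7% (4.88% of all genes): Nid1, Lama1, Lamb1, Lama2 and Fbn1. The other laminin genes of the list, Lama4, Lama5, Lamb2 and Lamc1, were not called. Nid1, which links laminin and collagen networks, had 8.40, 18.1 and 6.07 CPM in control and 3.37, 3.18 and 2.61 CPM in deficient libraries. Control replicate 2 was high, the groups did not overlap, and the log2 fold change was −1.81 (standard error 0.394, edgeR, Benjamini-Hochberg adjusted p = 0.0676). Lama1, a laminin alpha chain of early embryos, had 7.55, 18.7 and 6.24 CPM in control and 2.74, 4.58 and 2.23 CPM in deficient libraries. Lamb1, the beta chain of several laminins, had 10.7, 17.4 and 7.71 CPM in control and 5.33, 3.36 and 3.09 CPM in deficient libraries. Both laminin genes were highest in control replicate 2 and had no overlap between the groups, with log2 fold changes of −1.74 (standard error 0.495) for Lama1 and −1.61 (standard error 0.327) for Lamb1. Lama2 (log2 fold change −1.69, standard error 0.445) and the fibrillin gene Fbn1 (−0.76, standard error 0.184) were called as well.

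Fn1 and Lama4, named after their values were seen, missed the call narrowly. Fn1, which encodes fibronectin, had 60.2, 83.7 and 47.4 CPM in control and 35.8, 39.5 and 28.3 CPM in deficient libraries. Its groups did not overlap, and the log2 fold change was −0.88 (standard error 0.242, edgeR, Benjamini-Hochberg adjusted p = 0.101, and from 3.98e-05 to 0.376 over 15 alternatives). Lama4, a laminin alpha chain of vessels and mesenchyme, had 2.87, 8.43 and 4.27 CPM in control and 2.51, 1.96 and 2.80 CPM in deficient libraries. Control replicate 2 was high and control replicate 1 close to deficient replicate 3, without overlap (log2 fold change −1.07, standard error 0.369, edgeR, Benjamini-Hochberg adjusted p = 0.107, and from 0.0120 to 0.605 over 15 alternatives). With control replicate 3 left out both were called lower (Benjamini-Hochberg adjusted p = 0.0235 for Fn1 and 0.0830 for Lama4), as they were by DESeq2 (0.000106 and 0.0748), on library totals (0.00752 and 0.0934) and without a filter on low counts (3.98e-05 and 0.0120). Fn1 alone was also called by limma-voom (0.0740), with RLE size factors (0.0988) and with the length correction (0.0678). The log2 fold change of Lama4 was −0.56 without control replicate 2, and with the marker scaling those of Fn1 and Lama4 were 0.42 and 0.25, below the median of all genes.

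The number of ligands called lower was 0 without control replicate 1 or deficient replicate 3, 1 without control replicate 2 or deficient replicate 2, and 8 without control replicate 3. Without deficient replicate 1 Lama1 lost its call (Benjamini-Hochberg adjusted p = 0.172, with 2.02e-07 and 0.474 the lowest and highest of 15 alternatives). The Benjamini-Hochberg adjusted p of the 5 genes (edgeR) lay between 0.0583 and 0.0965. With the scaling to neural crest markers they lay between −0.44 and −0.30 apart from Fbn1 at 0.50, all under the median of all genes; Fbn1 was also under the fold change threshold with the length correction (−0.52). With TMM 13 of the 27 neural crest markers were called lower as well, and their part in the fall of the ligands was not tested. The 23 ligands had a median log2 fold change of −0.07, which was 0.05 below that of all genes with TMM and 0.03 below it with the marker scaling, and it was −0.11, 0.00 and −0.13 when control replicates 1, 2 and 3 were dropped in turn and −0.11, −0.24 and 0.07 when deficient replicates 1, 2 and 3 were.

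The most abundant ligand per length was Spp1 (osteopontin, 866 CPM per kb), an RGD protein made by macrophages and bone cells. Spp1 had 1334, 1255 and 1438 CPM in control and 1430, 1525 and 1577 CPM in deficient libraries. Control replicate 3 lay above deficient replicate 1, and the log2 fold change was 0.17 (standard error 0.0718, edgeR, Benjamini-Hochberg adjusted p = 0.153). Icam1, the ligand of LFA-1 and Mac-1, came next, at 190 CPM per kb, with 759, 727 and 824.5 CPM in control and 851, 889 and 932 CPM in deficient libraries. Its groups did not overlap, with the deficient libraries higher. By the adjusted p alone, at 0.1, Icam1 and Tgfb1 were higher (edgeR, Benjamini-Hochberg). This was 8.70% of the tested ligands, beside 4.18% of all tested genes. Madcam1, the ligand of alpha4 beta7, and vitronectin (Vtn) failed the filter.

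Further cell types that use these receptors were read by their markers. Of 9 endothelial markers 6 were tested. All 9 summed to 180, 176 and 198 CPM in control and to 202, 202 and 214 CPM in deficient libraries, nearly all from Kdr (184 CPM on average). Pecam1 had a mean of 5.59 CPM and the other 7 had means under 2 CPM. The endothelial sum exceeded the neural crest sum in control replicate 3 and in all deficient libraries. Smooth muscle markers summed to between 16.3 and 21.7 CPM, mostly from Acta2. Of 11 erythroid markers 9 were tested. That list summed to 31.3, 75.2 and 23.0 CPM in control and to 24.6, 17.6 and 22.1 CPM in deficient libraries, with control replicate 2 high.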

How the data were processed

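The authors trimmed adapters from paired-end reads of strand-specific poly(A) libraries, aligned them with STAR (GRCm38) and ran featureCounts for a count per gene. These counts are the deposited values used here, whole numbers without normalization. The annotation release, the strand setting and the handling of reads with several alignments are not given.

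Genes were named and measured by the merged exons of GENCODE M21. In R 4.3.3, edgeR 4.0.16 filtered genes with filterByExpr (minimum count 10, minimum total 15), normalized them by TMM and fitted a robust quasi-likelihood model with the group as its term, with Benjamini-Hochberg adjustment over all 13961 genes. The common biological coefficient of variation was 12.8%. Standard errors come from the F statistic. The named genes are all members, Smarcc1 and Smarcc2, and, of the other adhesome genes and the ligands, the called genes and the most abundant per length. Any other gene, markers included, was named after its values were seen. Members and lists were chosen with earlier results of these data known.

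The alternatives were DESeq2 1.42.0, limma-voom (limma 3.58.1), RLE size factors, library totals, other filters and thresholds, a length correction (lowess, span 0.3), a block for the replicate number, each library left out, Itga4 counted among the leukocyte integrins, and scaling to 19 neural crest markers with at least 2 CPM. Summaries and figures used Python 3.11.15, numpy 2.4.6, pandas 2.3.3 and matplotlib 3.10.9.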

Additional observations from a re-analysis of the deposited data

How the results depend on the processing

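The scaling to neural crest markers raises all genes together, so by its construction modest negative log2 fold changes turn positive, here 20: Itga1 1.07, Itga6 1.02, Itga7 0.85, Itga10 1.17, Itga11 0.34, Itgb3 1.03, Itgb4 0.23, Itgb8 0.63, Tln2 0.37, Fermt2 0.93, Ilk 0.92, Parva 0.46, Ptk2 0.84, Vcl 1.17, Bcar1 0.53, Fbn1 0.50, Fn1 0.42, Lama4 0.25, Smarcc1 0.55 and Smarcc2 1.09. It moved the medians to 1.37 for leukocyte integrins, 1.12 for other integrins, 1.22 for the adhesion core and 1.19 for all genes. With it, 0 members, 9 of all genes, 0 other adhesome genes and 0 ligands were called lower, 24 members, 10150 of all genes and 39 adhesome genes higher, and 0 members were lower and 27 higher at an adjusted p of at most 0.1. Where libraries are not raised together, signs turned for Itga9 (−0.00197 with a filter at 1 CPM), Itga1 (0.20) and Vcl (0.0603) with the length correction, and Itga10 (0.11) with limma-voom. With libraries left out in turn, signs turned within ranges of −0.0342 to 0.0618 for Itga9, −0.11 to 0.38 for Itgad, −1.18 to 0.0575 for Ilk, −0.0119 to 0.16 for Itgam, −0.39 to 0.10 for Vcl, −0.0435 to 0.13 for Parvb, −0.0598 to 0.19 for Parvg, −0.62 to 0.27 for Itga10 and −0.00599 to 0.23 for Itga2b. The cause of these other turns was not tested.

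Members called lower numbered 0 with the length correction, 0 with limma-voom, 2 without a filter, 2 at an adjusted p of at most 0.1 alone, 0 at 0.05 and 0 to 2 with a library left out, and 4 were higher at the adjusted p alone. Of all genes, 1082 were lower and 583 higher at the adjusted p alone, 94 lower and 0 higher at 0.05, 15 higher with DESeq2 and 33 higher without a filter; with a library left out, 0 to 1219 were lower and 0 to 45 higher. Members at an adjusted p of at most 0.1 numbered 7 higher with DESeq2, 1 lower and 8 higher with the length correction, 0 higher on library totals, 1 lower with limma-voom, 5 lower and 7 higher without a filter, and 0 to 4 lower and 0 to 9 higher with a library left out. Outside the main fit, the share of all tested genes at this adjusted p is not given beside such member counts. They therefore do not show whether the members differed from all genes. Other adhesome genes called lower were 1 with limma-voom, 4 at the adjusted p alone, 0 at 0.05 and 0 to 7 with a library left out, and 4 were higher at the adjusted p alone. Ligands called lower were 8 with DESeq2, 8 on library totals, 8 without a filter, 0 at 0.05 and 0 to 8 with a library left out.

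The main fit did not pair the samples by replicate number. Between control and deficient libraries of the same number, deviations from the group mean had correlations of 0.0284, −0.0335 and 0.293. Libraries of unlike numbers were not compared, so these values cannot settle whether the numbers pair the samples. With the replicate number as a block, 2 members, 1143 of all genes and 8 ligands were called lower and 21 of all genes higher, and at an adjusted p of at most 0.1, 5 members were lower and 8 higher. With this block Parva (adjusted p = 0.0763), Fn1 (7.30e-05) and Lama4 (0.0739) were called lower. Counting Itga4 among the leukocyte integrins gave medians of 0.17 for them and −0.11 for the others. Tested members with a mean under 2 CPM had standard errors over 0.4, and so did Fermt2 (0.432) at a mean of 7.19 CPM. What part the depth of the libraries had in this was not tested. The deficient libraries were all deeper, so depth and group cannot be told apart.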
